A study of Homo sapiens with 4 samples.

Results

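Of the 60683 genes in the files, 9 genes of the NRF2 antioxidant pathway are described here, found by their symbols: the regulators NFE2L2 and KEAP1, and the effector genes NQO1, HMOX1, GCLC, GCLM, TXNRD1, SRXN1 and GPX2. NRF2, the protein encoded by NFE2L2, is a transcription factor that binds antioxidant response elements together with small MAF proteins. KEAP1 holds NRF2 in the cytoplasm and hands it to a CUL3 ubiquitin ligase for degradation, and oxidants or electrophiles that modify KEAP1 let NRF2 accumulate. Its targets make and recycle glutathione, reduce thioredoxin and peroxiredoxins, detoxify quinones and break down heme, and in colorectal tumour cells the pathway is known for its part in drug and oxidant resistance.

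The cells were HCT116, an established human colorectal carcinoma line, transduced with a pSin lentivirus and kept under puromycin. In 2 libraries the vector was empty. In the other 2 it expressed FOXD2, a transcription factor of the forkhead family, from its complete coding sequence. Both groups thus share the transduction and the selection. PolyA RNA was sequenced, and the labels say neither whether the replicates came from separate cultures or transductions nor how many clones the stable lines hold, and the spread on which each p-value rests may therefore be technical. The comparison asks how the transcriptome differs in the presence of FOXD2.

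Libraries held between 14231338 and 15535817 counts. FOXD2 itself stood at 3.50 and 2.78 CPM (the count relative to the TMM-scaled library total) in empty vector replicates 1 and 2 and at 526 and 479 CPM in FOXD2 replicates 1 and 2, as the labels say. The epithelial markers EPCAM, KRT8, KRT18 and CDH1 were present in every library, whereas the colonocyte markers CDX1 and CEACAM5 had no count in any. Of the 10 genes in this colorectal epithelium list 6 were tested. EPCAM, KRT8, KRT18 and CDH1 were called higher with FOXD2. CDX2 was lower, at 16.2 and 18.9 CPM with the empty vector against 11.4 and 13.4 CPM with FOXD2 (edgeR adjusted p = 0.0010). KRT20 did not pass, and VIL1 and LGALS4 were too low to be tested. Of markers of other cell types, 5 of 8 fibroblast genes and 3 of 10 blood and endothelial genes had no count, and the lists summed to 9.51 and 11.2 CPM (fibroblast) and to 6.37 and 7.35 CPM (blood and endothelium) with the empty vector, against 32.2 and 33.4 CPM and 46.6 and 38.0 CPM with FOXD2. COL1A1 alone gave 31.4 and 32.8 CPM of the fibroblast sum in FOXD2 replicates 1 and 2. CD68 alone gave 42.3 and 35.5 CPM of the blood and endothelium sum there. Each rise lay almost wholly in the gene named. Mitochondrial mRNAs took 6.79% and 6.80% of counts with the empty vector and 8.17% and 8.62% with FOXD2. The sum of 5 RNAs made without a polyA tail (RN7SL1, RN7SL2, RN7SK, RMRP and RPPH1) was 29.7 and 28.5 CPM with the empty vector, 129 CPM in the first FOXD2 replicate and 56.8 CPM in the second. By this measure the first FOXD2 replicate lay far from the other 3 libraries, and the second also lay above both empty vector libraries.

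The mRNAs of glutamate-cysteine ligase, cytosolic thioredoxin reductase and the quinone reductase NQO1 were lower in FOXD2 cells, whereas the 2 regulators moved little. TXNRD1 fell 2.11-fold, GCLM 1.59-fold, NQO1 1.50-fold and GCLC 1.29-fold. SRXN1 rose 1.17-fold, a rise that rested on FOXD2 replicate 1, and HMOX1 did not pass the test. GPX2 was at the limit of detection in every library. Of the 8 genes with enough counts to be tested, 5 were lower, 1 was higher and 2 did not pass (edgeR quasi-likelihood test, Benjamini-Hochberg adjusted p under 0.05 over 14470 genes). Among all genes tested 53.5% passed, 26.4% as lower and 27.2% as higher, so a call by itself does not set a gene apart here. The median log2 fold change was -0.27 over the 8 genes and 0.01 over all genes tested. In a bulk sample, fewer cells that express a gene and less RNA per cell cannot be told apart.

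**Figure D1:**
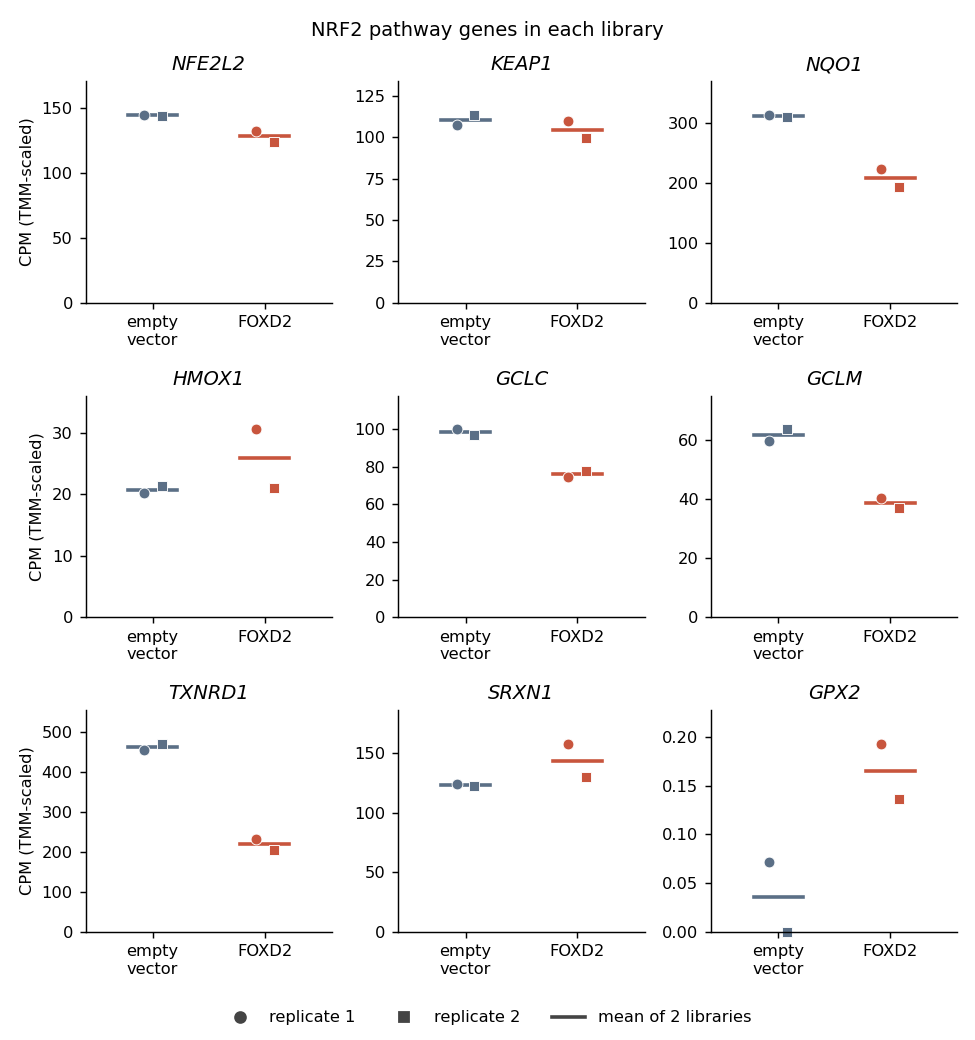
Level of each of the 9 genes in CPM, on axes that start at 0, for the 2 empty vector and 2 FOXD2 libraries; circles are replicate 1, squares replicate 2 and lines the mean of each group. For TXNRD1, NQO1, GCLM, GCLC and NFE2L2 both FOXD2 libraries lie below both empty vector libraries, for HMOX1 and KEAP1 the groups overlap, and the GPX2 axis ends below 1 CPM.

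Promoter sequence was read for 8 of the 9 genes (11 promoters, from 250 bases before to 50 after the start, RefSeq, GRCh38.p14); HMOX1 had no entry. The core of the antioxidant response element, TGACNNNGC, was searched on both strands and matched in 5 of the 11 promoters, of TXNRD1, GCLM, GPX2 and KEAP1, against 13.3% of all 35116 promoters. Among 140 promoters of other genes of the pathway, from lists introduced with their values, 16.4% held it. The matches that lie wholly before a RefSeq start are shown because they include the 2 genes that fell most, TXNRD1 and GCLM, beside the barely detected GPX2 and the KEAP1 gene that did not pass. Capitals mark the 9 bases of the match, and each line is written on the strand on which the core reads forward.
GCLM: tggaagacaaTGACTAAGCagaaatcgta
TXNRD1, first start: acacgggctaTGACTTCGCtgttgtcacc
TXNRD1, second start: agagtcagaaTGACAAAGCagaaatccac
GPX2: atccccaggaTGACTTAGCaaaaacaggt
KEAP1, farther match: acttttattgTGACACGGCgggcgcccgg
KEAP1, nearer match: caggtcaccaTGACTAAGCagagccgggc

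The GCLM line is chr1:93909446-93909474 (plus strand of the genome, antisense to the gene), with its match 26 to 34 bases before the start. The TXNRD1 lines are chr12:104215670-104215698 (plus strand) and chr12:104286920-104286948 (minus strand, antisense to the gene), 91 to 99 and 94 to 102 bases before their starts. The GPX2 line is chr14:64942849-64942877 (plus strand, antisense), 114 to 122 bases before the start. The KEAP1 lines are chr19:10502807-10502835 (minus strand) and chr19:10502784-10502812 (plus strand, antisense), 46 to 54 and 23 to 31 bases before 1 of 2 KEAP1 starts. All printed matches but that of the first TXNRD1 line overlap a UTR of some transcript of GENCODE release 29, since starts differ between annotations. The GCLM match does so only at its edge and lies otherwise outside the annotated gene. A further TXNRD1 match spans the first start and is not printed. No promoter of NQO1, GCLC, SRXN1 or NFE2L2 held the core in this window, and the forkhead core TAAACA, on both strands, was in none of the 11 promoters and in 12.3% of all promoters. A match is a description of letters, and no match says only that they are not in this window.

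NFE2L2, on chromosome 2 from 177227595 to 177392697 (minus strand, GRCh38, GENCODE release 29), was measured at 145 and 144 CPM in empty vector replicates 1 and 2 and at 132 and 124 CPM in FOXD2 replicates 1 and 2. The groups did not overlap, and the difference was small: log2 fold change -0.17 (SE 0.07, adjusted p by edgeR = 0.024), with 34.2% of all tested genes at least as far down. The call was lost in 9 of the 14 alternative fits, among them those without empty vector replicate 1 (adjusted p = 0.13), without empty vector replicate 2 (0.12) and without FOXD2 replicate 2 (0.14), and those with no scaling factors (0.16) or with the replicate number as a block (0.077). The annotated span of NFE2L2 holds other genes. Of these AGPS, on the other strand, carried 1482 to 1817 counts per library, and the library kit was directional, but the strand setting of the counting is not given in the sources used here.

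KEAP1, the sensor and inhibitor of NRF2 (chromosome 19, 10486120 to 10503741, minus strand), stood at 107 and 114 CPM with the empty vector and at 109.7 and 99.6 CPM with FOXD2. The groups overlapped, and the gene did not pass (edgeR log2 fold change -0.08, SE 0.07, adjusted p = 0.36); it passed in none of the 14 alternative fits, where adjusted p ran from 0.082 to 0.92. The protein level and the location of NRF2 were not measured by these libraries.

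TXNRD1 encodes cytosolic thioredoxin reductase, the selenoenzyme that uses NADPH to reduce thioredoxin. The gene (chromosome 12, 104215779 to 104350305, plus strand) had 453 and 469.5 CPM in empty vector replicates 1 and 2 and 232 and 206 CPM in FOXD2 replicates 1 and 2. Both FOXD2 libraries were far below both empty vector libraries, and the gap between groups was several times the gap between replicates. The log2 fold change was -1.08 (SE 0.06, adjusted p by edgeR = 4.0e-22), and 2.58% of tested genes, 374 in number, were at least as far down. It stayed between -1.17 and -1.0 over the 14 alternative fits, all of which called it lower. Of the 2 RefSeq promoters of this gene, both hold the core shown in capitals above.

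NQO1, the quinone reductase most often read as a marker of NRF2 activity, lies on chromosome 16 from 69706996 to 69726951 (minus strand). It was the highest of the 9 genes per length in both groups. Its level was 314 and 310.1 CPM with the empty vector and 223 and 194 CPM in FOXD2 replicates 1 and 2, with no overlap. The log2 fold change was -0.58 (SE 0.06, adjusted p by edgeR = 2.9e-11), and 9.06% of tested genes were at least as far down. All 14 alternative fits called it lower, at log2 fold changes from -0.69 to -0.48.

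Glutamate-cysteine ligase, the rate-limiting enzyme of glutathione synthesis, is made of the catalytic subunit GCLC and the modifier subunit GCLM. GCLM (chromosome 1, 93885205 to 93909456, minus strand) had 59.6 and 63.5 CPM in empty vector replicates 1 and 2 and 40.5 and 36.8 CPM in FOXD2 replicates 1 and 2. GCLC (chromosome 6, 53497341 to 53616970, minus strand) had 99.9 and 96.9 CPM against 74.8 and 77.8 CPM. Neither gene overlapped between the groups. The log2 fold change was -0.67 for GCLM (SE 0.08, adjusted p by edgeR = 1.0e-09) and -0.37 for GCLC (SE 0.07, adjusted p by edgeR = 1.9e-05). GCLM was called lower in all 14 alternative fits. GCLC was called lower in 12 of them, and with limma on log2 values of the deposited TPM its adjusted p was 0.061 with a pseudocount of 1 and 0.060 with 0.1.

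Per length, in TPM (transcript abundance corrected for length and library total), GCLC stood above GCLM in each library. The ratio of GCLC to GCLM was 2.06 and 1.85 with the empty vector, against 2.21 and 2.82 with FOXD2 (replicates 1 and 2 in turn). The groups did not overlap, but the gap between the FOXD2 libraries was wider than the gap from the empty vector libraries to FOXD2 replicate 1. With 2 libraries against 2 an exact two-sided permutation test cannot go below p = 0.33, which is the value found.

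SRXN1 encodes sulfiredoxin, which restores overoxidised peroxiredoxins. The gene (chromosome 20, 646615 to 653370, minus strand) went the other way from TXNRD1, with 124 and 123 CPM in empty vector replicates 1 and 2 and 158 and 129.8 CPM in FOXD2 replicates 1 and 2. FOXD2 replicate 2 lay close above the empty vector libraries, and FOXD2 replicate 1 clearly higher. The log2 fold change was 0.22 (SE 0.07, adjusted p by edgeR = 0.011). Without FOXD2 replicate 1 it was 0.06 (adjusted p = 0.49), without FOXD2 replicate 2 it was 0.35 (adjusted p = 2.6e-06), and without empty vector replicate 2 the call was also lost (adjusted p = 0.075). The ratio of TXNRD1 to SRXN1 in TPM was 2.48 and 2.60 with the empty vector and 0.997 and 1.09 with FOXD2, so that the 2 mRNAs stood at near equal levels per length in FOXD2 cells (exact permutation p = 0.33, the smallest possible). SRXN1 is overlapped by the readthrough gene AL121758.1, to which no count was assigned in any library.

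HMOX1, heme oxygenase 1, breaks heme down to biliverdin, iron and carbon monoxide, and lies on chromosome 22 from 35380361 to 35394214 (plus strand). It was measured at 20.2 and 21.3 CPM in empty vector replicates 1 and 2 and at 30.6 and 21.1 CPM in FOXD2 replicates 1 and 2. FOXD2 replicate 2 lay within the empty vector range and FOXD2 replicate 1 well above it. The gene did not pass (edgeR log2 fold change 0.32, SE 0.14, adjusted p = 0.067). Without FOXD2 replicate 1 the log2 fold change was 0.01 (adjusted p = 0.94) and without FOXD2 replicate 2 it was 0.56 (adjusted p = 1.5e-05). In all it passed in 6 of the 14 alternative fits, also without empty vector replicate 2 (adjusted p = 0.043), with no scaling factors (0.035), with upper-quartile factors (0.042), with no filter on low counts (0.018) and with the replicate number as a block (0.027).

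FOXD2 replicate 1 was above FOXD2 replicate 2 for 7 of the 8 tested genes, all but GCLC, with a median log2 gap of 0.16. Over 115 tested genes of the wider pathway it was above for 64.3%, and over all tested genes for 49.8%. The same library held more of the RNAs without a polyA tail, as given above; the part of that difference in the values of SRXN1 and HMOX1 was not tested.

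**Figure D2:**
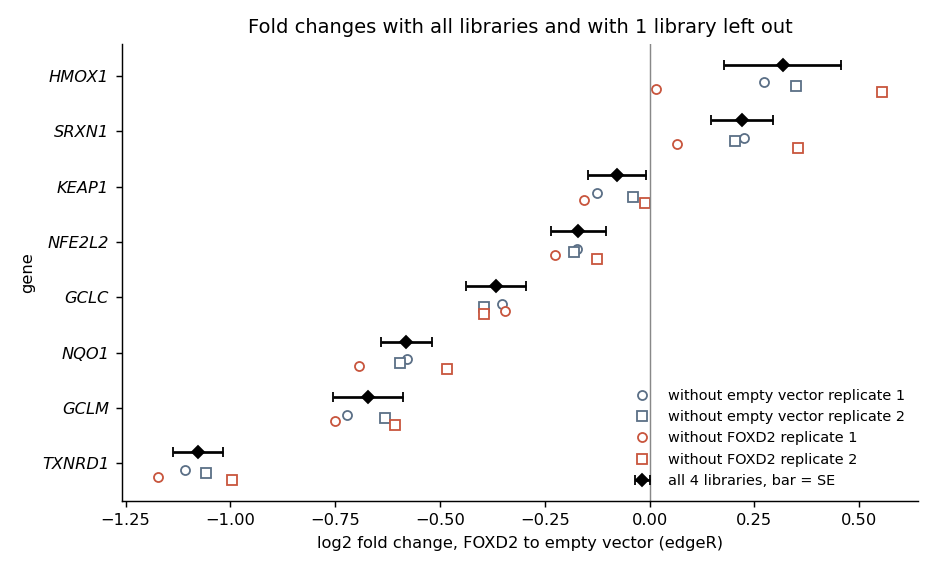
Log2 fold change of FOXD2 to empty vector for the 8 tested genes; black diamonds with bars show the fit to all 4 libraries and its standard error, and open symbols the fits with 1 library left out. TXNRD1, GCLM, NQO1 and GCLC stay below 0 by a wide margin, whereas SRXN1 and HMOX1 drop to 0.06 and 0.01 without FOXD2 replicate 1.

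GPX2, the gastrointestinal glutathione peroxidase and a known NRF2 target, had 1 and 0 counts in empty vector replicates 1 and 2 and 3 and 2 counts in FOXD2 replicates 1 and 2. It was too low to be tested. The ratio of counts, relative to library totals, was 5.04 with an exact 95% interval of 0.563 to 238, which covers counting error only and includes no difference. A count of 0 allows up to 3 counts, between 0.193 and 0.215 CPM in these libraries. The gene (chromosome 14, 64939152 to 64942905, minus strand) lies inside the span of CHURC1 on the other strand. Other glutathione peroxidases were abundant per length: GPX1 had 317 to 396 TPM and GPX4 348 to 413 TPM in the 4 libraries.

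Ordered by level per length, the genes in empty vector cells ran from NQO1 (330.5 ± 13.1 TPM, SD, n = 2) through TXNRD1 (171 ± 0.559), NFE2L2 (84.8 ± 3.29), KEAP1 (71.3 ± 1.90), SRXN1 (67.2 ± 2.02), GCLC (39.9 ± 2.03), GCLM (20.4 ± 0.523) and HMOX1 (20.3 ± 0.453) to GPX2 (0.065 ± 0.0919). GCLM and HMOX1 did not differ beyond their spread. In FOXD2 cells NQO1 was still first at 215 ± 15.6 TPM. TXNRD1 (83.1 ± 5.23), SRXN1 (80.1 ± 9.83) and NFE2L2 (75.9 ± 1.41) followed; SRXN1 did not differ from either beyond its spread, whereas both libraries had more TXNRD1 than NFE2L2, with no overlap, and HMOX1 (25.3 ± 5.91) stood above GCLM (13.3 ± 1.15).

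The deposited tables also give for each gene a length averaged over its transcripts by their abundance, a readout of the transcript mix that the count does not hold. For TXNRD1, with 24 transcripts in the files, it was 3610 and 3618 bases in empty vector replicates 1 and 2 and 3620 and 3597 bases in FOXD2 replicates 1 and 2, so it overlapped between the groups while the count fell. For NQO1 it was 1390 and 1409.8 bases against 1472 and 1450.1 bases, and for KEAP1 2167 and 2153 bases against 2226 and 2363 bases, with no overlap in either gene. For GCLC it was 3298 and 3341 bases against 3289 and 3104 bases, again with no overlap. The exact permutation p of these differences was 0.33, the smallest that 2 against 2 allows. For NFE2L2, HMOX1 and GCLM the lengths overlapped, and SRXN1 has 1 transcript. The lengths of GPX2 did not overlap either, though it had only 0 to 3 counts per library. The share of all genes whose lengths do not overlap was not taken, so lack of overlap does not set these genes apart.

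Other genes of the pathway were read from 11 lists of 133 genes in all, the 9 included. Of 115 tested, 33 were higher and 49 lower, with a median log2 fold change of -0.10. Among all genes tested 27.2% were higher and 26.4% lower, with a median of 0.01. The counts given below for single lists are to be read beside these shares, near which some of them lie. No test over a list was run. Among the 14 tested regulators and partners of NRF2 other than NFE2L2 and KEAP1, 5 rose and 4 fell. The small MAF gene MAFF, a partner of NRF2 on DNA, had 9.08 and 9.14 CPM in empty vector replicates 1 and 2 and 17.2 and 16.5 CPM in FOXD2 replicates 1 and 2 (edgeR log2 fold change 0.88, SE 0.14, adjusted p = 3.4e-07). SQSTM1, the autophagy adaptor p62 that sequesters KEAP1, had 284 and 288 CPM against 598 and 470.4 CPM (0.90, SE 0.13, adjusted p = 0.0046). BTRC, an adaptor of another ubiquitin ligase that targets NRF2, fell by 0.37 on the log2 scale, and PGAM5, a mitochondrial KEAP1 partner, by 0.32; with limma on log2 TPM (pseudocount 1) both calls were lost (adjusted p = 0.091 and 0.11). CUL3, singled out for its role after its values were seen, went from 154 and 152 CPM to 129.7 and 130.2 CPM (-0.24, adjusted p = 0.0016).

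In glutathione supply the genes went both ways. Of 16 tested genes of synthesis, recycling and transport beside GCLC and GCLM, 4 rose, 8 fell and 4 did not pass. ABCC2, an exporter of glutathione conjugates and other organic anions, had 94.8 and 95.1 CPM in empty vector replicates 1 and 2 and 15.9 and 18.5 CPM in FOXD2 replicates 1 and 2 (edgeR log2 fold change -2.46, SE 0.09, adjusted p = 1.2e-30). ABCC3, an organic anion exporter of the same family, had 19.5 and 17.0 CPM against 86.3 and 92.2 CPM (2.29, SE 0.09, adjusted p = 4.5e-29). Per length, ABCC2 was the higher of these exporters with the empty vector (26.9 and 30.1 TPM, against 7.79 and 7.07 TPM) and ABCC3 with FOXD2 (36.9 and 42.8 TPM, against 4.86 and 5.56 TPM). CHAC1, which degrades glutathione, fell by 1.71 on the log2 scale, from 12.6 ± 1.90 to 3.84 ± 0.168 CPM (SD, n = 2). GGT1, which cleaves glutathione outside the cell, rose by 1.51, but reads shared with related genes gave its count a posterior SD of up to 30.6 counts, so its value is uncertain.

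Further genes of this supply line were singled out for their role after their values were seen. Glutathione reductase GSR went from 201 and 191 CPM to 143 and 132 CPM (edgeR log2 fold change -0.51, SE 0.06, adjusted p = 8.6e-10). SLC3A2, the heavy chain of the cystine transporter and of other amino acid transporters, fell by 0.88 on the log2 scale. SLC7A11, the cystine-transporting light chain, stood at 107 and 104 CPM with the empty vector and at 97.2 and 105 CPM with FOXD2, overlapped between the groups and did not pass (-0.06, adjusted p = 0.47). Glutathione synthetase GSS did not pass either (-0.05, adjusted p = 0.55).

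Of 3 glutathione peroxidases tested, 2 fell and 1 rose. GPX8, of the endoplasmic reticulum, had 46.7 and 45.4 CPM in empty vector replicates 1 and 2 and 13.4 and 14.4 CPM in FOXD2 replicates 1 and 2 (edgeR log2 fold change -1.73, SE 0.10, adjusted p = 5.7e-21). GPX4, which reduces lipid peroxides, fell by 0.27. GPX1, the cytosolic peroxidase, rose by 0.23, a call lost without empty vector replicate 1 (adjusted p = 0.079). GPX3 had no count in any library. Of 11 glutathione transferases tested, 5 rose and 4 fell, with MGST2 at 0.87, GSTCD at -0.44 and GSTO2 at -0.30, all past the threshold; GSTCD missed it with limma on log2 TPM (pseudocount 1, adjusted p = 0.054). GSTM4 (0.47) lost its call in 3 of the 14 alternative fits, among them those without empty vector replicate 1 or FOXD2 replicate 2.

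In the thioredoxin and peroxiredoxin list, 9 of 16 tested genes other than TXNRD1 and SRXN1 fell and 3 rose. GLRX5, a mitochondrial glutaredoxin of iron-sulfur assembly, had 79.7 and 86.7 CPM with the empty vector and 55.2 and 61.2 CPM with FOXD2 (edgeR log2 fold change -0.52, SE 0.08, adjusted p = 1.1e-07). The mitochondrial reductase TXNRD2 went against its cytosolic counterpart TXNRD1, with 12.2 and 13.2 CPM in empty vector replicates 1 and 2 and 22.9 and 18.9 CPM in FOXD2 replicates 1 and 2 (0.72, SE 0.13, adjusted p = 3.4e-06). The peroxiredoxin PRDX2 rose by 0.32. The sestrin SESN3, at low level, fell by 1.16 (-0.75 without FOXD2 replicate 1), and missed the threshold with limma on log2 TPM (pseudocount 1, adjusted p = 0.098). Thioredoxin TXN (-0.45) and PRDX1 (-0.35), named for their role after their values were seen, fell as well. TXNIP was listed at 0 in all 4 libraries.

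Of 11 detoxification genes tested beside NQO1, 3 rose and 3 fell. AKR1B1, an aldo-keto reductase, fell by 0.65 on the log2 scale, and NQO2, the paralogue of NQO1, had 45.0 and 50.6 CPM in empty vector replicates 1 and 2 against 33.8 and 31.7 CPM in FOXD2 replicates 1 and 2 (-0.55, SE 0.09, edgeR adjusted p = 7.5e-07). The epoxide hydrolase EPHX1 rose by 0.53. The carboxylesterase CES1 had no count with the empty vector and 156 counts over both FOXD2 libraries, at least 52.4-fold higher against 3 counts over the group.

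**Figure D3:**
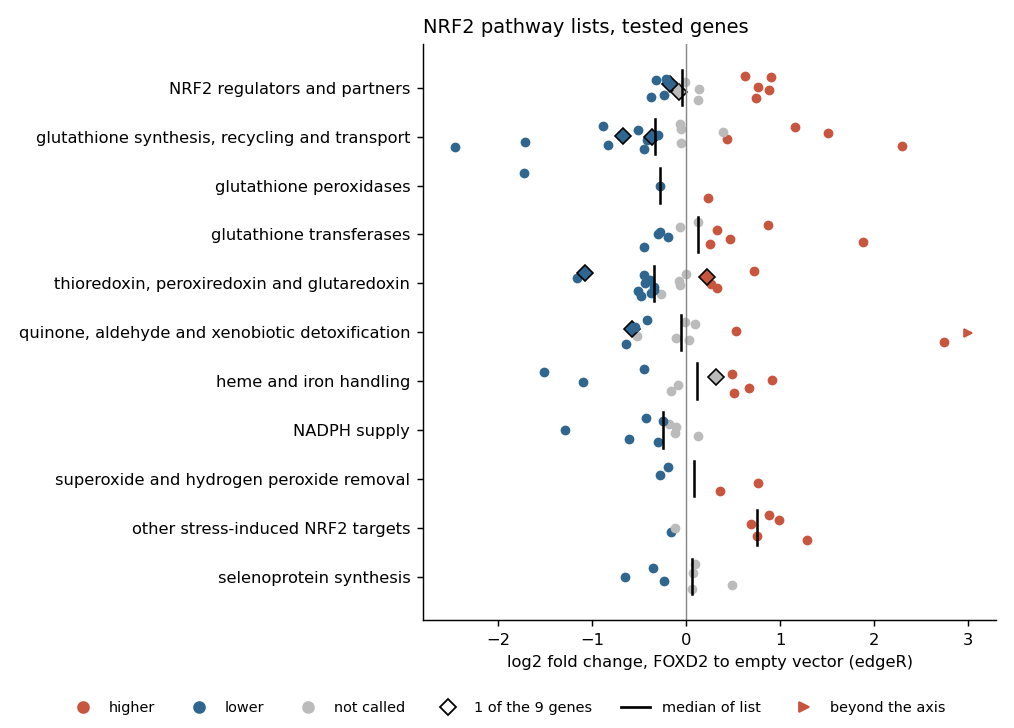
Log2 fold change of FOXD2 to empty vector for the tested genes of the 11 pathway lists; each point is a gene coloured by its call, diamonds are 8 of the 9 genes the text is about, black lines are list medians, and CES1 lies beyond the axis. Points lie on both sides of 0 in every list, with list medians from -0.34 for thioredoxins and peroxiredoxins to 0.75 for the other stress-induced targets.

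Of the iron storage genes, the ferritin chains went in opposite directions. FTH1, the ferritin heavy chain, had 1841 and 2085 CPM in empty vector replicates 1 and 2 and 984 and 848 CPM in FOXD2 replicates 1 and 2 (edgeR log2 fold change -1.10, SE 0.08, adjusted p = 1.3e-07). FTL, the ferritin light chain, had 999 and 1105 CPM against 2202 and 1763 CPM (0.91, SE 0.15, adjusted p = 0.021). Per length, the heavy chain was the more abundant with the empty vector (2531 and 2834 TPM, against 1933 and 2078 TPM for the light chain). The light chain was the more abundant with FOXD2 (4249 and 3464 TPM, against 1416 and 1222 TPM). The biliverdin reductase genes differed. BLVRB rose by 0.67. BLVRA, singled out for its role after its values were seen, did not pass (edgeR log2 fold change -0.16, adjusted p = 0.25). The transferrin receptor TFRC fell by 0.45. Of 9 tested genes of this list beside HMOX1, 4 rose and 3 fell.

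**Figure D4:**
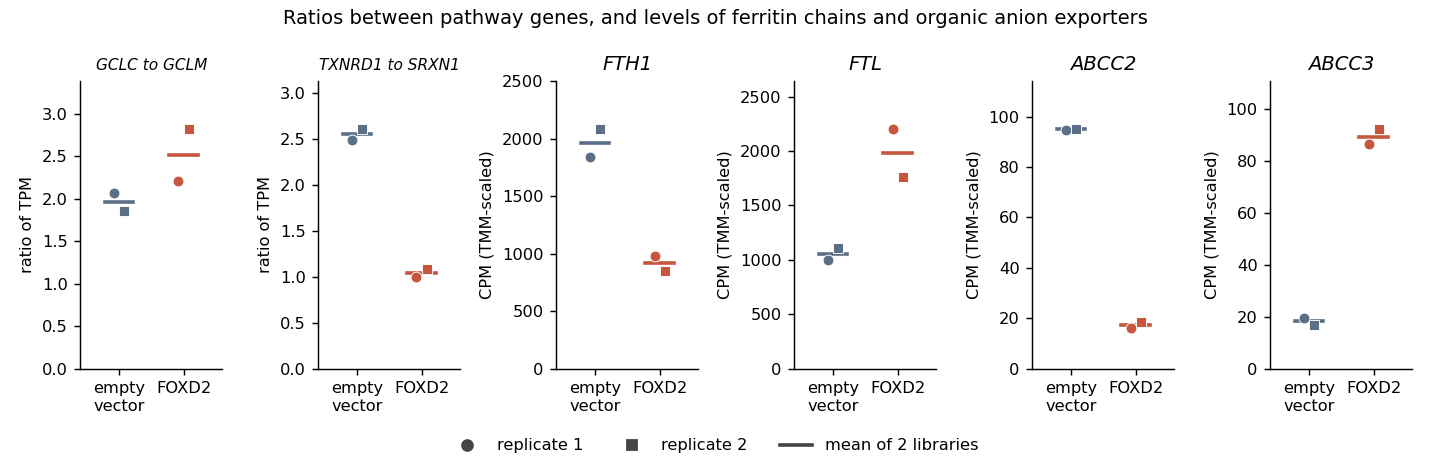
Ratio of TPM between GCLC and GCLM and between TXNRD1 and SRXN1, and level in CPM of the ferritin chains FTH1 and FTL and the exporters ABCC2 and ABCC3, in the 2 empty vector and 2 FOXD2 libraries; circles are replicate 1, squares replicate 2, lines group means, and all axes start at 0. The ratio of TXNRD1 to SRXN1 falls from about 2.5 to about 1.0, FTH1 and FTL move in opposite directions, and so do ABCC2 and ABCC3.

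NADPH is the reducing power used by both glutathione reductase and thioredoxin reductase. In the list drawn up for NADPH supply, 5 of 9 tested genes fell, and 4 did not pass. Which cofactor each enzyme of this list uses in these cells was not measured. MTHFD2, a mitochondrial folate enzyme, had 512 and 541 CPM with the empty vector and 218 and 213 CPM with FOXD2 (edgeR log2 fold change -1.29, SE 0.06, adjusted p = 7.3e-27), and the isocitrate dehydrogenase IDH1 fell by 0.60. Of 4 tested genes that remove superoxide and hydrogen peroxide, catalase CAT (0.36) and the copper chaperone CCS (0.77) rose, and the superoxide dismutase SOD1 (-0.28) fell. SOD2 (-0.19) was called lower, and lost the call without empty vector replicate 1 (adjusted p = 0.065) or 2 (0.14). In selenoprotein synthesis, on which TXNRD1 and the selenium-dependent peroxidases rely, 3 of 7 genes fell, with SEPHS1 at -0.65, and SEPSECS (-0.36) lost its call without empty vector replicate 1 (adjusted p = 0.10).

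In the list of other stress-induced NRF2 targets 5 of 7 genes were higher, 1 was lower and 1 did not pass (median log2 fold change 0.75). OSGIN1, an oxidative stress-induced growth inhibitor, had 13.3 and 13.2 CPM in empty vector replicates 1 and 2 and 36.7 and 27.7 CPM in FOXD2 replicates 1 and 2 (1.29, SE 0.12, edgeR adjusted p = 9.0e-12). TRIM16, a ubiquitin ligase, had 24.2 and 23.3 CPM against 51.7 and 42.2 CPM (0.99, SE 0.10, adjusted p = 4.9e-12). Both were higher in FOXD2 replicate 1 than in FOXD2 replicate 2, as were 7 of the 8 tested genes among the 9. Neither OSGIN1 nor TRIM16 overlapped between the groups. The proteasome gene PSMA1 (-0.16) was called lower, and lost the call without empty vector replicate 2 (adjusted p = 0.25) or FOXD2 replicate 2 (0.053).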

How the data were processed

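RNA of 2 empty vector and 2 FOXD2 libraries was analysed. STAR 2.7.2b and RSEM 1.2.31 were used on GRCh38, per the submitters' processing notes; annotation release and strand setting are not given in the sources used here. The deposited tables hold, per the file headers, the expected count of each gene, in which RSEM divides reads shared between genes, together with the authors' TPM, the authors' FPKM and the gene length weighted over transcripts. TPM served for levels per length and an alternative test, FPKM for an alternative ratio. Of the 60683 identifiers 60370 were matched to a symbol; GSTT1 was not analysed here.

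Expected counts were rounded to whole numbers and tested in R 4.3.3 with edgeR 4.0.16 by quasi-likelihood (TMM factors, filterByExpr, robust, intercept and group, all 4 libraries), with Benjamini-Hochberg adjustment over 14470 genes and a threshold of 0.05. SE is the log2 fold change divided by the root of F. The fit was tested on simulated data. Replicates differed by more than sampling noise (chi-square per degree of freedom 2.52 and 3.91). Alternatives used DESeq2 1.42.0, limma 3.58.1, other scalings and filters, a replicate block, and each library left out. Beside the 9 genes, those named are the 2 largest rises and 2 largest falls per list past the threshold, at a mean log2 CPM of at least 1 and without overlap; others are said to be singled out. The members and lists were chosen with earlier results of these data known.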

Additional observations from a re-analysis of the deposited data

How the results depend on the processing

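Over 14 alternative fits none of the 8 tested genes changed direction, and FOXD2 was higher in each. The call that TXNRD1, NQO1 and GCLM were lower held in all 14. The number of the 9 genes called higher (1, SRXN1) was 2 with upper-quartile factors, library totals, no filter on low counts or the replicate block, and 0 with DESeq2 or with limma on log2 TPM at either pseudocount; the number called lower (5) was 3 with limma on TPM. With 1 library left out, 0 to 2 were higher and 4 to 5 lower; the lone sample of a group is then assumed to vary like the other group. Over all genes, DESeq2 called 2414 higher in place of 3929, and limma on TPM called 2442 (pseudocount 1) or 2436 (pseudocount 0.1) lower in place of 3816. The cause of these shifts was not tested. Scaling by library totals moved the median of all genes by 0.07. The replicate numbers pair no samples by the labels, and replicate deviations of the groups had a correlation of -0.099 across genes; with the replicate block 3680 genes were higher and 3494 lower. Genes under about 3 counts, such as GPX2, cannot be compared at this depth.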
